A study of Mus musculus with 16 samples.

Results

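H3K4me1 marks primed and active enhancers, and H3K27ac marks the active ones. Enhancers that carry H3K4me1 without H3K27ac are called primed: nucleosomes are monomethylated there while the histone acetylation that goes with activity is missing. SETD5 is a SET-domain protein that associates with the NCoR corepressor and histone deacetylases, complexes that remove acetyl groups from histones. The regions described here kept H3K4me1 through the first 48 h of adipocyte differentiation, had no H3K27ac island at any time, and had no SETD5-V5 island at 6 h. They were chosen by position: a region is an H3K4me1 island of the 0 h library that overlapped, by 1 bp or more, an H3K4me1 island of the 48 h library, no island of any of the 8 H3K27ac libraries, and no island of either SETD5-V5 library at 6 h. Of 50276 H3K4me1 islands at 0 h, 4165 (8.28%) met this rule. They are called primed silent islands below.

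The cells were 3T3-L1, mouse preadipocytes that grow as fibroblasts. Day 0 was confluent preadipocytes before induction and day 2 (48 h) was after addition of insulin, dexamethasone and isobutylmethylxanthine (MDI). H3K27ac was profiled by ChIP-seq in cells transduced with empty virus and with SETD5-V5 virus, at 0 h and 48 h, in replicates A and B of each. V5-tagged SETD5 was profiled with an anti-V5 antibody at 0 h and 6 h, in replicates A and B, and endogenous SETD5 in cells without virus with 1 library at 0 h and 1 at 6 h. H3K4me1 had 1 library at 0 h and 1 at 48 h, so differences between these times have no replicate check. By the labels, both H3K4me1 libraries came from cells with the SETD5-V5 virus, whereas the paper's figures show untransduced cells, and no virus is named for replicate A of the V5 libraries. SETD5-V5 was expressed from a retrovirus and not from its own gene. The deposited lists give enriched regions (islands) with a score for each, without read counts, so the depth behind a single island is unknown. An island missing from a list is a region below the caller's threshold in that library, and an island marked in few of the cells cannot be told apart from one marked weakly in all of them. All positions are on mm9.

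The 16 lists held between 2132 and 50276 islands. At the start sites of 16 genes known from preadipocytes and fibroblasts, such as Pdgfra, Col1a1 and Prrx1, between 14 and 15 had an H3K27ac island in each of the 8 H3K27ac lists. Fabp4, a fatty-acid carrier of adipocytes, had one in the 4 lists of 48 h and in none of the 4 lists of 0 h. Cebpa and Pparg, also read as markers of differentiation, had one in all 8 lists and did not separate the times. The defining markers Ptprc of blood cells, Cdh5 of endothelium, Myod1 of muscle and Epcam of epithelium had none in any list.

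The middle 200 bp of 6 primed silent islands are shown, read from the forward strand of the reference. The first 4 are the islands with the highest H3K4me1 scores at 0 h and are named by the nearest protein-coding gene. The last 2 are the islands within 100 kb of Cebpa and Pparg, the master genes of adipogenesis. Capitals mark both copies of the longest stretch that occurs more than once in the window, where it has at least 20 bases.
Apba2 (chr7:71628501-71628700): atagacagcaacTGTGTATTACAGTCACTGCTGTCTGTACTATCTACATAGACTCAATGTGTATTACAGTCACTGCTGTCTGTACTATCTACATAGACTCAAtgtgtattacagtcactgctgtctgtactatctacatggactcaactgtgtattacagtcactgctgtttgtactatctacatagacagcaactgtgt
Gm17379 (chrX:166612501-166612700): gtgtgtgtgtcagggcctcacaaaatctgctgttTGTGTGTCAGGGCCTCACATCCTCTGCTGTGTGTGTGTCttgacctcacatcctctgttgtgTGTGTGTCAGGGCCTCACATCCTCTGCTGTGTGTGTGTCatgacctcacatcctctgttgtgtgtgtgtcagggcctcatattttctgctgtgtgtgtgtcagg
5031410I06Rik (chr5:26426601-26426800): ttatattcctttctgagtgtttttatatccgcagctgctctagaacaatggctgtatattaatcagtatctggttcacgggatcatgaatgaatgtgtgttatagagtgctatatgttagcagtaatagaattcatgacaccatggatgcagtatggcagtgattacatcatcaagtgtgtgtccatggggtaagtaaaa
Plxna1 (chr6:89334201-89334400): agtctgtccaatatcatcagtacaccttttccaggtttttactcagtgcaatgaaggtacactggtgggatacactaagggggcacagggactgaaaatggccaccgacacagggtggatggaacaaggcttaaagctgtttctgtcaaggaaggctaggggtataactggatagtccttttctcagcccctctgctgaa
Cebpa (chr7:35883701-35883900): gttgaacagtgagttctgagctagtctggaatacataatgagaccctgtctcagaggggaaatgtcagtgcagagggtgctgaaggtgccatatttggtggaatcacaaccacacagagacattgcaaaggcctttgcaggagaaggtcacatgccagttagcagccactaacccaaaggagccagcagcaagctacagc
Pparg (chr6:115250201-115250400): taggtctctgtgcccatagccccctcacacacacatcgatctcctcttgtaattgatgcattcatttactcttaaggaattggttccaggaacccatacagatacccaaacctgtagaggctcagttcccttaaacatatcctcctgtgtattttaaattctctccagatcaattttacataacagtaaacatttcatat

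The windows near Apba2 and Gm17379 consist of tandem copies. A stretch of 45 bases occurs 2 times in the first and a stretch of 39 bases occurs 2 times in the second, without a mismatch. The other 4 windows hold no repeated stretch over 7 bases. None of the 6 windows contains the consensus of AP-1 (TGANTCA), C/EBP (TTGCNNAA) or TEAD (GGAATG) on either strand. The windows show copies next to each other only: the island at 5031410I06Rik lies in an exon and is rich in sequence with further copies elsewhere in the genome (described below), which its window does not show.

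Among all 0 h islands, 33570 (66.8%) overlapped a 48 h H3K4me1 island. Of these, 6821 overlapped no H3K27ac island, and 2656 of the 6821 overlapped a SETD5-V5 island at 6 h, which left the 4165. The 2656 are called SETD5-V5-bound silent islands and are the class most like the primed silent islands. Of them, 1394 overlapped SETD5-V5 in both replicates, 986 in replicate A only and 276 in replicate B only. A further 2 classes serve for comparison, the 26749 islands retained at 48 h with H3K27ac in at least 1 list and the 5460 islands that had neither H3K27ac nor SETD5-V5 at 6 h and were lost by 48 h. Each exclusion rested on several lists for most islands: 2035 retained islands were kept out of the class by 1 of the 10 excluding lists alone, of which between 50 and 139 for each H3K27ac list.

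By score, the primed silent islands lay in the lower part of the 0 h list. The score was ranked as the share of all 0 h islands with a higher score. The median rank was 59.9%, with quartiles of 39.8% and 78.7%. SETD5-V5-bound silent islands had a median of 55.5%, retained islands with H3K27ac 31.8%, and lost silent islands 77.5%. Only 55 primed silent islands (1.32%) were in the highest-scoring 10% of the list, against 4860 (18.2%) of the retained islands with H3K27ac. These ranks describe the class and were not tested, since retention at 48 h and absence of H3K27ac both move with the score: 99.2% of the highest-scoring 10% was retained and 2.55% of it had no H3K27ac, against 40.0% and 47.0% of the lowest-scoring 10%. Between these ends, primed silent islands made up 1.09% of the highest 10%, 9.15% of the lowest 10%, and up to 11.4% in between.

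**Figure D1:**
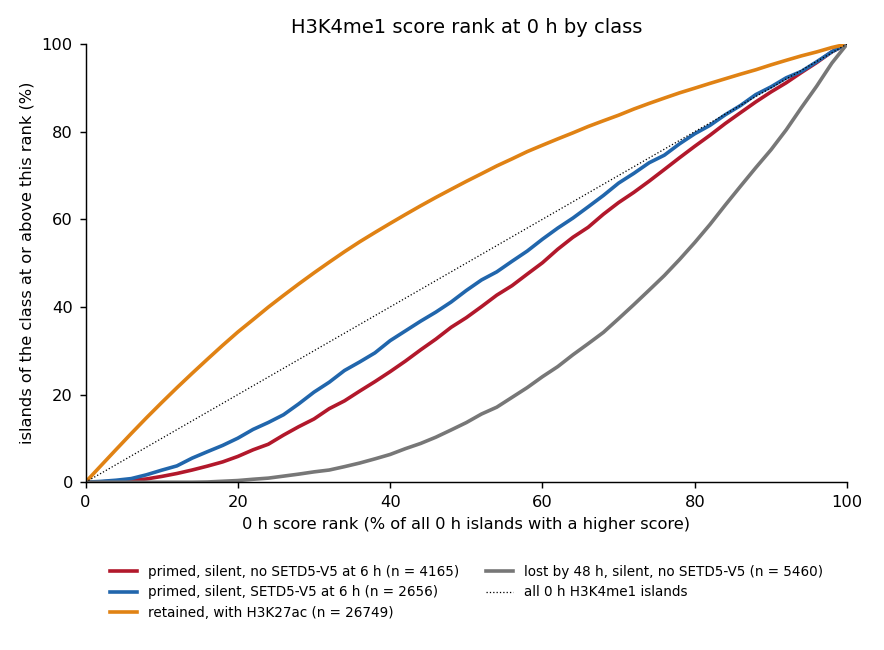
Cumulative share of the islands of each class (vertical axis, %) at or above a given 0 h score rank (horizontal axis, % of all 0 h H3K4me1 islands with a higher score), with a line per class and the dotted diagonal for all islands. The primed silent islands (n = 4165) run below the diagonal with a median of 59.9%, between the SETD5-V5-bound silent islands (55.5%) and the lost silent islands (77.5%).

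The islands were short. Their median length was 1800 bp (quartiles 1200 bp and 2400 bp), as in SETD5-V5-bound silent islands (1800 bp), against 2400 bp in retained islands with H3K27ac and 1600 bp in lost silent islands. Together they covered 7.97 Mb. At 48 h, 4021 of the 4165 overlapped 1 H3K4me1 island and 144 overlapped 2 or more. The 48 h islands were longer in 2353 cases (56.5%), shorter in 1371 (32.9%) and of equal length in 441, with a median ratio of 48 h to 0 h length of 1.15. The ratio was 1.25 in SETD5-V5-bound silent islands and 1.20 in retained islands with H3K27ac, so lengthening between the libraries was not limited to silent islands. The median rank among 48 h islands was 51.7%. A median of 83.3% of each 0 h island was covered at 48 h, 152 islands had identical bounds at both times, and 80 were kept in the class by the smallest overlap, a single window of 200 bp. Across islands, the scores at the 2 times were weakly related (Spearman's rho = 0.26 over 4165 islands, 0.48 over the retained islands with H3K27ac). This is a description across islands of the same libraries, and islands are not replicates.

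How far the silent islands lay from acetylated chromatin was read in each list. The median distance to the nearest H3K27ac island of empty-vector cells was 13.8 kb in replicate A and 14 kb in replicate B at 0 h, and 15.2 kb and 15.4 kb at 48 h. In SETD5-V5 cells it was 12.6 kb and 13.6 kb at 0 h, and 14.6 kb and 13.8 kb at 48 h. The medians of the 8 lists thus stayed between 12.6 kb and 15.4 kb. For SETD5-V5-bound silent islands they lay between 7.40 kb and 9.40 kb, lower in every list. The same 8 lists served to choose both classes, which were then split by SETD5-V5 at 6 h. The difference can thus be partly set by the rule, and it was not tested. Taking the nearest island of all 8 lists, the median was 7.60 kb (quartiles 3.00 kb and 18.8 kb), 1757 islands (42.2%) were at least 10 kb away and 157 at least 100 kb away. The nearest SETD5-V5 island at 6 h was at a median of 11.0 kb.

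**Figure D2:**
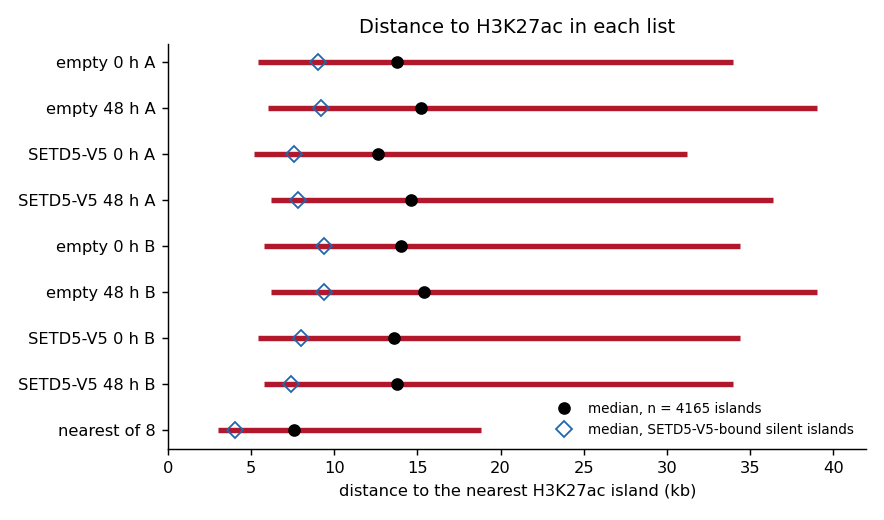
Distance in kb (horizontal axis) from primed silent islands to the nearest H3K27ac island in each of the 8 lists and in all of them together (rows), with black points for the median, red bars for the quartiles and blue diamonds for the median of SETD5-V5-bound silent islands. Medians of the primed silent islands fall between 12.6 kb and 15.4 kb in single lists, to the right of the diamonds in every row. The same 8 lists served to choose both classes.

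At the border of the rule, 53 primed silent islands touched an H3K27ac island without sharing a base, and 311 (7.47%) lay within 1 kb of one. The highest-scoring of the touching islands was at chr5:3435801-3438600, near Gm17590, with 86.3% repeated sequence (defined below), followed by chr4:119873401-119877800 near Edn2, which encodes an endothelin. Just outside were 5538 retained islands without SETD5-V5 that did overlap H3K27ac. Of these, 51 did so by 200 bp or less, 773 in 1 of the 8 lists only and 1077 in all 8. The highest-scoring with the smallest overlap was chr5:140847601-140851600 near Snx8, which overlapped H3K27ac in both SETD5-V5 libraries of 48 h and lay 2.00 kb to 38.8 kb from it in the other 6 lists.

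Primed silent islands are not all distal elements. Of the 4165, 422 (10.1%) lay at a promoter, taken as 1000 bp before and 100 bp after an annotated start site, against 13.5% of all 0 h islands, 8.58% of SETD5-V5-bound silent islands, 16.9% of retained islands with H3K27ac and 6.37% of lost silent islands. With a promoter of 2500 bp on both sides the share was 19.3%. By their centre, 2222 (53.3%) were in introns, 1723 (41.4%) between genes and 220 (5.28%) in exons, and the shares over all islands were 53.1%, 42% and 4.93%. The median distance to any annotated start site was 13 kb, against 14.4 kb over all islands, and 243 islands were more than 100 kb away. The shares of introns, exons and sequence between genes were thus close to those of H3K4me1 islands at large.

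Whether SETD5 was present at other times was read from 4 libraries outside the rule. SETD5-V5 at 0 h overlapped 256 primed silent islands in replicate A (6.15%, 95% Wilson interval 5.46% to 6.92%) and 145 in replicate B (3.48%, 2.97% to 4.08%), a mean of 4.81% ± 1.88 (SD, n = 2). Over all 0 h islands the shares were 30.3% and 12.3%. SETD5-V5-bound silent islands had 30.6% and 16.9%, and retained islands with H3K27ac had 43.0% and 17.4%. The primed silent islands were thus below both classes in both replicates, and above the lost silent islands (3.57% and 1.61%). The 0 h libraries used the same tagged protein and antibody as the 6 h libraries of the rule. The SETD5-V5-bound class was chosen for SETD5-V5 at 6 h, and retained islands with H3K27ac were not filtered for it. A lower 0 h share of the primed silent islands is thus partly set by the rule, also in the SETD5-V5 comparisons below. With replicate B left out of the rule and of the readout, the share was 7.57%, against 6.15% for replicate A in the reported class. The intervals cover counting error over islands only, and no test was made.

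Endogenous SETD5 overlapped 141 primed silent islands at 0 h (3.39%) and 150 at 6 h (3.60%), and over all 0 h islands these shares were 3.21% and 6.51%. An island of either time was found at 178 (4.27%, 95% Wilson interval 3.70% to 4.93%, against 7.38% over all islands), and islands of both times at 113. At 0 h the share was close to that of all islands, whereas SETD5-V5-bound silent islands had 9.56% at 0 h and 12.4% at 6 h. In all, 393 of the 4165 (9.44%) overlapped SETD5 in at least 1 of the 4 libraries, so the absence of SETD5 holds for the 2 libraries of the rule and not for every SETD5 library.

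Most overlaps with endogenous SETD5 fell on sequence that occurs more than once in the genome. Reads were mapped from 36 bases, and a read from such sequence has no single position. For each island, 36-base words were sampled every 20 bp and the share with a further exact copy in the genome on either strand was taken. In 313 primed silent islands (7.52%, against 2.39% of all 0 h islands), over 50% of these words were repeated. The share was 6.97% in SETD5-V5-bound silent islands, 1.55% in retained islands with H3K27ac and 3.15% in lost silent islands, so both silent retained classes were above the others. The 313 repeated islands held 87 of the 141 overlaps with endogenous SETD5 at 0 h (61.7%), 95 of 150 at 6 h (63.3%) and 94 of 145 with SETD5-V5 replicate B at 0 h (64.8%), but 49 of 256 with replicate A (19.1%). Repeated islands held 525 of 1612 overlaps with endogenous SETD5 at 0 h and 533 of 3271 at 6 h over all 0 h islands. In lost silent islands they held 45 of 70 and 48 of 79, and in SETD5-V5-bound silent islands 128 of 254 and 130 of 329. In retained islands with H3K27ac they held 214 of 993 and 208 of 2354. The pattern was thus not particular to the primed silent islands. In the 3852 other islands, endogenous SETD5 overlapped 1.40% at 0 h and 1.43% at 6 h, and SETD5-V5 at 0 h overlapped 5.37% in replicate A and 1.32% in replicate B. Over all 49075 islands outside repeated sequence these shares were 2.21%, 5.58%, 30.0% and 11.5%. In the same single-copy range, SETD5-V5-bound silent islands had 5.10%, 8.05%, 27.4% and 12.7%. Leaving out repeated sequence thus lowered the endogenous shares of the primed silent islands from 3.39% to 1.40% and from 3.60% to 1.43%, below those of the SETD5-V5-bound class. The part of mapping in these overlaps was not tested, and no input library was used here.

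**Figure D3:**
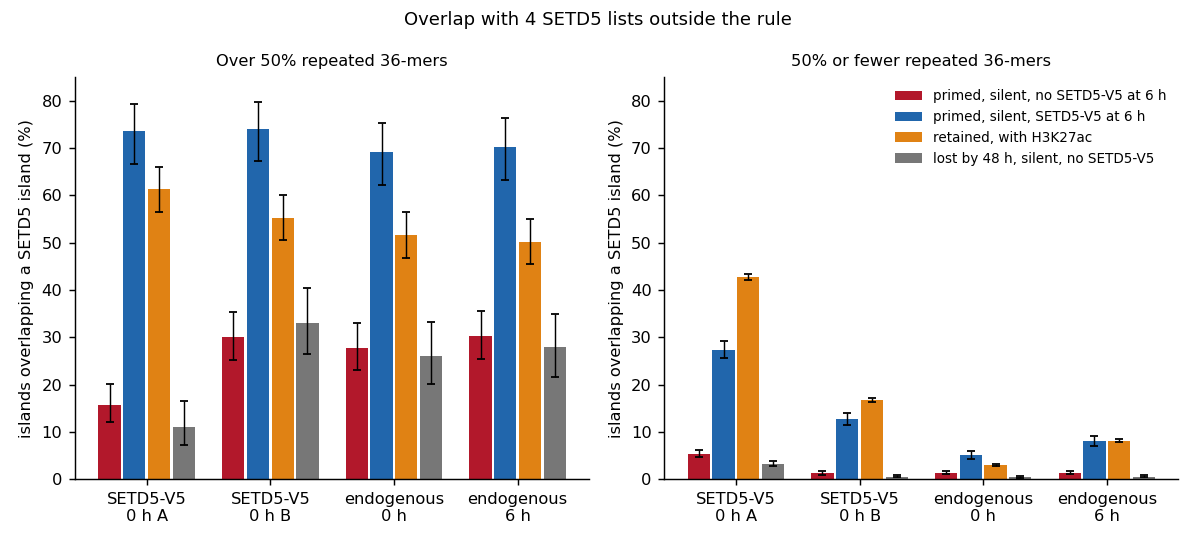
Share of islands (vertical axis, %) overlapping each of 4 SETD5 libraries outside the rule (horizontal axis), for islands with over 50% repeated 36-base words (left) and for the others (right), with bars for the 4 classes and 95% Wilson intervals. Primed silent islands reach 30.4% at most in repeated sequence and 5.37% at most in the rest, below the SETD5-V5-bound silent and the retained acetylated islands in every group of bars.

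At matched length the primed silent islands were again below both classes in SETD5-V5 and in endogenous SETD5 at 6 h, but not in endogenous SETD5 at 0 h. Among islands of 1600 bp to 2000 bp, 1201 primed silent islands overlapped SETD5-V5 at 0 h in 5.25% (replicate A) and 2.83% (replicate B) of cases, against 28.6% and 14.2% of 738 SETD5-V5-bound silent islands and 31.3% and 10.6% of 5548 retained islands with H3K27ac. The shares were 3.11% and 1.75% of 1769 lost silent islands and 21.8% and 7.83% of all 12646 islands of this length. Endogenous SETD5 at 0 h overlapped 2.83% of the primed silent islands, 6.64% of the SETD5-V5-bound silent and 2.20% of the retained islands with H3K27ac. At 6 h it overlapped 3.00%, 9.62% and 5.89% in the same order. Repeated islands were kept in this comparison. Outside repeated sequence and over all lengths, the 0 h shares were 1.40% of the primed silent and 2.96% of the retained islands with H3K27ac.

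Repeated sequence also led the list by score. Of the 10 primed silent islands with the highest 0 h score, 7 were repeated, against 23.6% of those in the highest 10% of the list. The highest-scoring was chr7:71619201-71638000, intergenic and 18 kb upstream of Apba2, which encodes an adaptor protein that binds the amyloid precursor. It was 18800 bp long, the longest of all, only 0.384% of 0 h islands had a higher score, and 93.1% of its words were repeated. The nearest H3K27ac island was 81.0 kb to 81.2 kb away in the 8 lists, and it overlapped SETD5-V5 replicate B and endogenous SETD5 at 0 h. The next were chrX:166609201-166616000 near Gm17379 (6800 bp, 78.5% repeated) and chr5:26420801-26432600 at 5031410I06Rik (11800 bp, 76.4% repeated), and both overlapped SETD5 in all 4 libraries outside the rule. The longest run of neighbouring 0 h islands that were all primed silent, 15 islands over 1493 kb, spans the same stretch of chromosome 5, from Gm1979 to Speer4b, with a median of 71.4% repeated words.

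The leading single-copy islands were near genes that include Plxna1 and Cux1. The highest was chr6:89329601-89339000, in an intron and 21.7 kb upstream of Plxna1, which encodes a semaphorin receptor. It was 9400 bp long at 0 h and 9000 bp at 48 h, with 2.57% and 6.73% of the islands of each list scoring higher, and 0.213% of its words were repeated. Its distance to H3K27ac in replicates A and B was 8.0 kb and 8.80 kb in empty-vector cells at 0 h and 8.20 kb and 9.60 kb at 48 h, and 9.80 kb and 9.2 kb in SETD5-V5 cells at 0 h and 14.4 kb and 9.60 kb at 48 h. Another, chr5:136970001-136980400, in an intron 66.4 kb from the start site of Cux1, a homeodomain protein, was 10400 bp and 8800 bp long, and lay 17.6 kb to 61.6 kb from H3K27ac. Neither overlapped SETD5 in any of the 4 SETD5 libraries outside the rule. They were long, high-scoring H3K4me1 regions at both times that no H3K27ac list reached. The island chr6:90726401-90734600 near Iqsec1, ranked between them, also overlapped none of these 4 libraries. In contrast, chr17:3034801-3039000 near Scaf8 overlapped SETD5 in all 4. Only 2.56% of its words were repeated, 4.41% of 0 h islands scored higher, and it lay 0.6 kb from SETD5-V5 at 6 h.

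Ranked by the 48 h score, 4 of the first 5 were repeated islands near Gm17379 and Apba2. The remaining one was chr6:91618401-91619600, 15.1 kb upstream of the taurine transporter gene Slc6a6. It was 1200 bp long at 0 h, where 92.8% of the islands scored higher, and overlapped a 48 h island of 27200 bp, where 0.224% scored higher. Its nearest H3K27ac island was between 2.20 kb and 7.20 kb away in the 8 lists. The rule reads H3K27ac over the 0 h island only, and the long 48 h island did overlap H3K27ac, in all 8 lists. Over the whole class, the 48 h partner island overlapped H3K27ac for 262 islands (6.29%). Of the 749 islands whose 48 h partner was over 2 times as long, 187 (25%) were of this kind, against 75 of the other 3416 (2.20%). For these 262, silence held for the stretch marked at 0 h and not for the whole stretch marked at 48 h.

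The islands farthest from H3K27ac were near Gm3002 and Hnf4g. The farthest was chr14:3651201-3652200 near Gm3002, at 3937 kb, with 85.7% repeated words. The next 4 lay at the start of the assembled part of chromosome 3, between chr3:3001201 and chr3:3013800, upstream of Hnf4g by 495 kb to 505 kb and 1851 kb to 1861 kb from H3K27ac. Their repeated share was between 0% and 4.08%, and 3 of the 4 overlapped SETD5-V5 replicate B at 0 h. The islands that start at chr3:3010601 and chr3:3012201 also overlapped endogenous SETD5 at 0 h and 6 h. These 4 were also among the 5 farthest from a start site, together with chr5:41590801-41592000, 508 kb from Rab28, which lay only 1.60 kb from H3K27ac.

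Primed silent islands were not spread evenly over chromosomes. Chromosome 6 held 896 and chromosome 5 held 521, together 34.0% of the class against 18.6% of all 0 h islands. They made up 15.7% of the 0 h H3K4me1 islands on chromosome 6 and 14.2% on chromosome 5, against 4.35% to 9.70% on the other 18. SETD5-V5-bound silent islands were also most frequent on chromosome 6, at 9.15%, with 9.06% on chromosome 15 and 4.37% on chromosome 5. A high share on chromosome 6 was thus not particular to the islands without SETD5-V5. Chromosome 6 was also dense in H3K4me1 islands, with 38.1 per Mb at 0 h and 39.3 at 48 h, where the median of the 20 chromosomes was 15.3 at 0 h. In the H3K27ac lists it had 13.2 to 16.3 per Mb, within the range of the chromosomes other than 5 and 6 (5.32 to 21.1). Chromosome 15 had a similar H3K4me1 density (34.2 per Mb) with 5.03% primed silent islands, 17.1 to 21.1 H3K27ac islands per Mb and 25.2 and 25.5 SETD5-V5 islands per Mb at 6 h, against 16.8 and 15 on chromosome 6. Of the 313 repeated islands, 75 were on chromosomes 5 and 6. No input library was used here, and the part of chromosome copy number in the culture was not tested. Over the 2748 islands of the other chromosomes, SETD5-V5 at 0 h overlapped 5.64%, endogenous SETD5 4.11% and a promoter 9.93%.

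**Figure D4:**
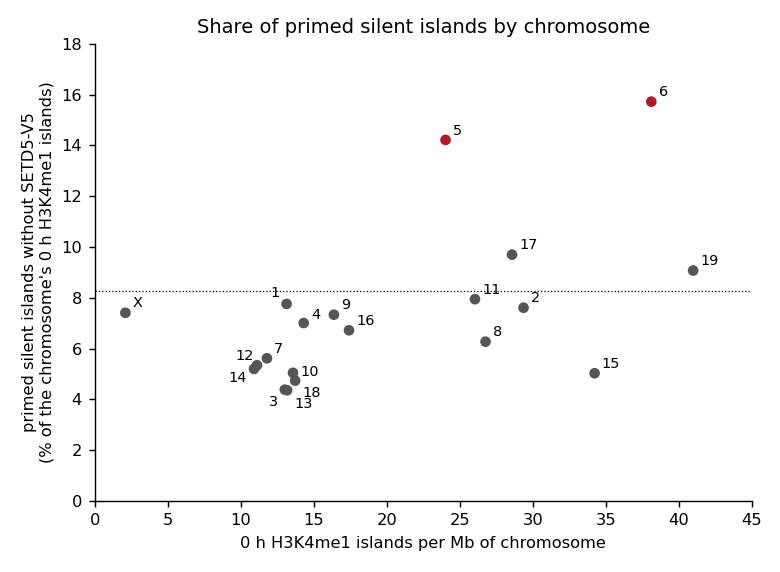
Share of primed silent islands among the 0 h H3K4me1 islands of each chromosome (vertical axis, %) against the density of those islands (horizontal axis, islands per Mb), with a point per chromosome and a dotted line at the genome-wide 8.28%. Chromosomes 5 (14.2%) and 6 (15.7%), in red, lie above the other 18, which range from 4.35% to 9.70%.

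The islands clustered along chromosomes. Of the 4165, 2588 stood alone and 1577 (37.9%) were in 644 runs of 2 or more neighbouring H3K4me1 islands of the class. The island that followed a primed silent island was primed silent in 22.4% of cases, against 8.28% of all islands. Single-copy runs included 8 islands over 44.8 kb at Itpr2, which encodes an inositol trisphosphate receptor, 6 islands over 78.6 kb at Sox9 and 6 over 101 kb between Sox5 and Bcat1.

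Each island was assigned to the nearest protein-coding start site. They fell on 2546 of 22238 protein-coding genes (11.4%), of which 1740 had 1 island and 331 had 3 or more. The 10 genes with most islands were led by Sox5, which encodes an SRY-box factor of cartilage formation, with 24. Dysf, which encodes the membrane repair protein dysferlin of muscle, had 18, Itpr2 16, the chromatin remodeller gene Arid1b 15, and Cyp26b1, whose product degrades retinoic acid, and the Polycomb-associated Rybp 12 each. Gm7292 and the mitochondrial carrier gene Slc25a13 had 11 each. C130026L21Rik, Gm17379, the plexin gene Plxna4, the protein kinase A subunit gene Prkar1b and the sorting receptor gene Sorcs2 shared the next place with 10 each. Of these 13 genes, 8 are on chromosome 6, 3 on chromosome 5, and Arid1b and Gm17379 on chromosomes 17 and X. All 10 islands of Gm17379 were repeated, against at most 1 at any of the other 12. The class made up 17.1% (Rybp) to 62.5% (Gm17379 and Prkar1b) of the nearest 0 h islands of these genes, against 8.28% of all 0 h islands. It made up 15.7% of the 0 h islands on chromosome 6 and 14.2% on chromosome 5, where most of these genes lie. The genes were chosen for their number of islands, so a high share is partly set by that choice.

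At Sox5 (chr6:143776945-144730497), 24 of the 76 nearest 0 h islands were primed silent, 23 had H3K27ac and 16 were SETD5-V5-bound silent. Of the 24, 12 lay within the gene, 3 up to 121 kb upstream and 9 beyond its end. Their ranks ranged from 13.4% to 97.3% with a median of 55.6%, their lengths from 600 bp to 3600 bp, and their distance to H3K27ac from 1.60 kb to 114 kb. None overlapped SETD5 in the 4 libraries outside the rule, and none was repeated. The highest-scoring was chr6:143544001-143547600, of 3600 bp at 0 h and 3200 bp at 48 h. H3K27ac islands were thus present around Sox5, with silent H3K4me1 islands between them.

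**Figure D5:**
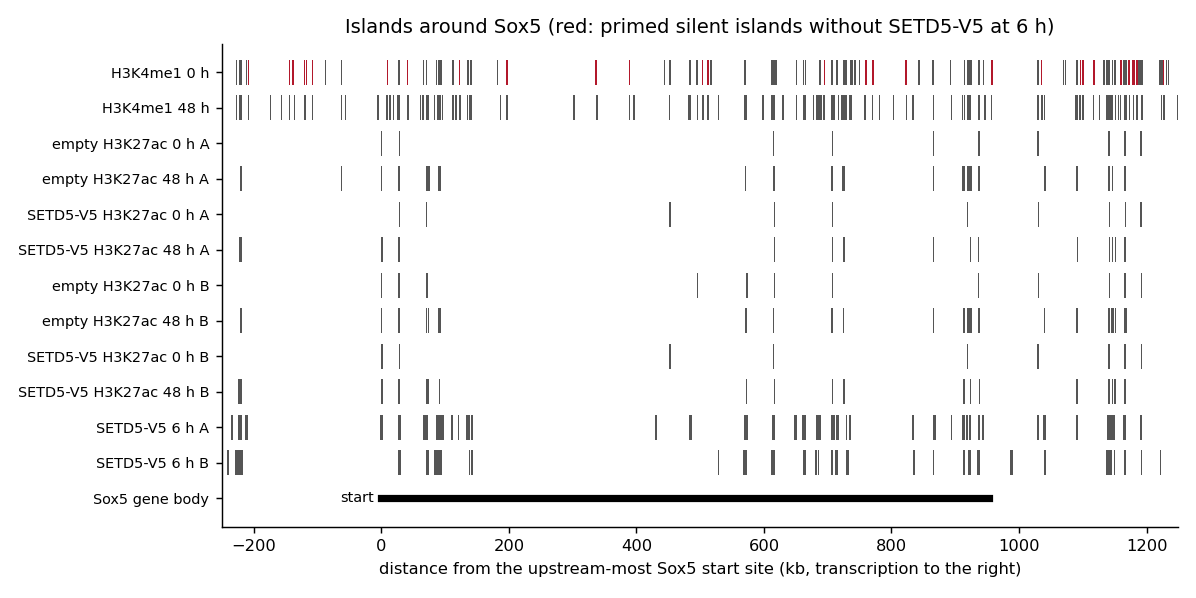
Islands of H3K4me1, of the 8 H3K27ac libraries and of SETD5-V5 at 6 h around Sox5 (rows), drawn by distance in kb from its upstream-most start site (horizontal axis, transcription to the right), with primed silent islands in red and the gene body as a black bar. The 24 red islands assigned to Sox5 fall between the acetylated sites, 12 of them inside the gene. Red islands over 121 kb upstream, and the one at 1226 kb to the right, are nearest to another gene.

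Among lists of genes chosen by function, the share with a primed silent island was read against the 11.4% over all protein-coding genes. The Wnt pathway, some of whose ligands restrain adipogenesis, had islands at 10 of 25 genes, the highest share by nearest start site. With start sites within 50 kb it had them at 7 of 25 and bone genes at 6 of 15. By that measure 4312 of all 22238 protein-coding genes had them. The 10 genes were the ligands Wnt2, Wnt4, Wnt5a, Wnt5b, Wnt9a and Wnt11, the secreted inhibitor Dkk1 and the nuclear factors Tcf7l1, Tcf7l2 and Lef1. Tcf7l2 had 7 of its 58 nearest 0 h islands in the class and Wnt5b 5 of 23, against 8.28% of all 0 h islands. On their chromosomes, 19 and 6, the class made up 9.07% and 15.7%. Counts of the genes below are likewise given out of their nearest 0 h islands. Cartilage, bone and muscle cells share a mesenchymal progenitor with fat. Of 15 cartilage genes, 4 had islands, 36 in all. Sox5 had 24 of 76 and Sox9 9 of 31. The collagen gene Col2a1 had 2 of 7 and Trps1 1 of 49. Of 15 bone genes, 4 had islands. Runx2, the master gene of osteoblasts, had 4 of 43 and Dlx6 3 of 8. Sp7 had 1 of 6 and Spp1 1 of 9. Of 15 skeletal muscle genes, Tnnt3 alone had 1. Among 14 endothelial and blood genes, 5 had islands. Cdh5 had 5 of 46, Runx1 5 of 25, Pecam1 2 of 8, Gata2 2 of 6 and Kdr 1 of 5.

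Some genes of the fat lineage were also nearest to islands of the class. Of 19 adipogenic regulators, 6 had islands. Zfp423, a preadipocyte commitment factor, had 6 of its 27 nearest 0 h islands, Klf4 2 of 22 and Cebpa 1 of 6. Cebpb had 1 of 2, Ebf1 1 of 65 and Stat5b 1 of 3. Of 25 genes of adipocyte lipid metabolism and adipokines, 3 had islands. Lep, which encodes leptin, had 4 of 13, Cd36 1 of 2 and Scd1 1 of 7. Among 15 thermogenic genes, Prdm16, a regulator of brown fat, had 3. Ppargc1a, a coactivator of mitochondrial genes, had 1 of 29. The 3 islands at Prdm16 were its only 0 h H3K4me1 islands, and they lay 129 kb to 226 kb from H3K27ac. At Lep the islands lay from 85.3 kb upstream to 14 kb downstream of the start site, 2.80 kb to 47.8 kb from H3K27ac, beside 7 acetylated islands. Of 16 preadipocyte and fibroblast genes, Pdgfra had 1 island of 7, Thy1 1 of 9 and Twist2 1 of 16.

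Axon guidance genes had islands at 7 of 23. Of these 17 islands, 10 were at Plxna4, among its 26 nearest 0 h islands. Neuronal genes had islands at 5 of 18 with 1 island each. TGF-beta and BMP genes had them at 7 of 27 (Smad7 3 of its 20 nearest islands). Inflammatory genes had them at 4 of 20 (Lif 3 of its 10 nearest islands). Interferon response genes had islands at 2 of 15 and cadherin genes at 2 of 23, Cdh5 and Cdh15. List genes often have more H3K4me1 islands than genes at large. A 0 h island was nearest to 23 of the 25 Wnt genes and to 11009 of all 22238 genes, of which 23.1% had a primed silent island. The lists were chosen with results of these data known, and no list was tested. Gene shares were not adjusted for chromosome, and Sox5, Plxna4, Lep, Dlx6 and Gata2 lie on chromosome 6.

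At Cebpa, the member was chr7:35882601-35885000, intergenic, 20.5 kb upstream. It was 2400 bp long at 0 h and 1600 bp at 48 h, and 46.8% and 95.7% of the islands of each list scored higher. Its distance to H3K27ac in replicates A and B was 17.0 kb and 17.6 kb in empty-vector cells at 0 h, 4.6 kb and 5.0 kb at 48 h, 17.8 kb and 17.6 kb in SETD5-V5 cells at 0 h, and 15.6 kb and 17.8 kb at 48 h. The H3K27ac islands of empty-vector cells at 48 h thus reached nearer to it than those of the other 6 lists, in both replicates. Near Pparg, chr6:115249601-115251000 lay 60.9 kb from a Pparg start site and nearer to Timp4. It was 1400 bp long at 0 h and 2000 bp at 48 h, with 85.2% and 93.3% scoring higher, and lay 24.8 kb and 26.4 kb from H3K27ac in empty-vector cells at 0 h, 3.60 kb and 7.60 kb at 48 h, 15 kb and 14.2 kb in SETD5-V5 cells at 0 h, and 3.60 kb and 3.20 kb at 48 h. Here the 4 lists of 48 h were all nearer than the 4 of 0 h. Neither island overlapped SETD5 in any of the 4 SETD5 libraries outside the rule.

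Primed silent islands were richer in G and C than the other classes. In the middle 1000 bp their median GC content was 49.3%, against 46.2% over all islands, 45.9% in SETD5-V5-bound silent islands, 47.0% in retained islands with H3K27ac and 46.3% in lost silent islands. Motifs rich in A and T were rarer: the homeodomain core TAATTA occurred in 13.9% (all islands 20.4%) and the MEF2 consensus in 7.83% (12.4%). The myogenic E-box CAGCTG occurred in 49.4% (45.6%) and the CTCF consensus in 2.30% (1.43%). C/EBP, whose factors start adipogenesis, occurred in 30.7% (95% Wilson interval 29.3% to 32.1%, all islands 37.0%) and AP-1 in 31.4% (30.0% to 32.9%, all islands 33.5%). SETD5-V5-bound silent islands had C/EBP in 35.5% and AP-1 in 38.4%, retained islands with H3K27ac in 37.5% and 34.3%, and lost silent islands in 33.0% and 31.9%. By both motifs the primed silent islands were closest to the lost silent islands.

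In windows of 44% to 50% GC, C/EBP occurred in 32.9% of 1712 primed silent islands, 37.1% of SETD5-V5-bound silent islands, 38.3% of retained islands with H3K27ac, 32.7% of lost silent islands and 36.7% of all islands. The gap to the lost silent islands was thus not seen where GC content was held. AP-1 occurred in 32.5%, 38.3%, 35.0%, 33.0% and 34.1% of the classes in the same order, and the homeodomain core in 15.7%, 19.0%, 18.5%, 18.6% and 18.5%. The E-box was at 46.9%, 44%, 47.3%, 47.4% and 47.0% there, and CTCF at 1.93%, 1.81%, 1.25%, 1.30% and 1.31%. Over all GC contents, SOX (AACAATG) occurred in 13.1% of the middle 1000 bp windows (95% Wilson interval 12.1% to 14.2%) against 15.1% over all islands, SRF in 3.82% (3.28% to 4.44%) against 5.2% and TEAD in 46.2% (44.7% to 47.7%) against 48.6%. For 5 motifs the share over all islands lay within the interval of the primed silent islands: RUNX (TGTGGT) in 57.3% against 57.7%, the glucocorticoid receptor in 2.04% against 2.07%, ETS (CCGGAAGT) in 1.01% against 1.08%, the PPAR-RXR direct repeat in 0.960% against 0.724% and NFI in 0.168% against 0.145%. All motifs were counted as exact matches on both strands, and a match is no measure of binding.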

How the data were processed

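ChIP-seq islands of 16 libraries were analysed. Per the paper's methods, the authors aligned the 36 bases at the 5′ end of each read to mm9 (ELAND or Bowtie2) and called islands in each library on its own by SICER or SICER2. The window was 200 bp, the allowed gap 400 bp (histone marks) or 600 bp (SETD5) and the E-value limit 100. The deposited lists give position and a caller score for each island. The score was used to rank islands within a list only. Whether an input entered the calling is not given in the sources used here, and the scores carry no read counts.

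An overlap meant 1 shared bp or more. Positions were annotated with GENCODE vM1 on NCBIM37, which is mm9, and sequence was read from that genome. Shares have 95% Wilson intervals, which cover counting error only. No test was made, since H3K4me1 has 1 library per time and islands are not replicates. The members and gene lists were chosen with earlier results of these data known. Named regions follow fixed rules: the 10 highest 0 h scores, the 5 highest 48 h scores, the 5 longest, the 5 farthest from H3K27ac or a start site, those at the border of the rule, the 10 genes with most islands (13 with ties) and list genes with 3 or more. The leading single-copy islands were added after their values were seen. Sequence windows are shown for the 4 highest 0 h scores and for the islands at Cebpa and Pparg. Not every island that the rules name is described, and 1 sequence window is not reported here. Genes with 1 or 2 islands are named where they complete a list. The motif windows of equal GC content and the islands of equal length were also chosen after the data were seen.

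The overlap code was tested on simulated lists against direct comparison. Python 3.11.15, numpy 2.4.6, pandas 2.3.3, scipy 1.17.1 and matplotlib 3.10.9 were used. Alternatives were a larger overlap, higher scores, a margin of 5000 bp around H3K27ac and SETD5-V5, merged islands, each replicate left out, other promoter and motif windows, and, added after seeing the data, repeated sequence or chromosomes 5 and 6 left out.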

Additional observations from a re-analysis of the deposited data

How the results depend on the processing

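Of 50 recomputed values, 33 stayed within the range set for them. For shares, distances and length ratios this range was the counting or replicate error. For the class size of 4165 it was a wide range of 2776.67 to 6247.5 islands, which is neither a counting nor a replicate error. Class sizes from 3616 islands (H3K4me1 islands within 1000 bp merged) to 5871 islands (replicate A left out) were thus counted as within range. When presence and absence required 50% of an island to be covered, 4308 islands were found, of which 3563 were in the reported class, the promoter share was 11.4% and the length ratio 1.2. With H3K4me1 islands above the median score at both times, 960 islands remained, SETD5-V5 at 0 h overlapped 7.08%, endogenous SETD5 6.98% and a promoter 14%. With no H3K27ac or SETD5-V5 island within 5000 bp, 2277 islands remained, with a median distance to a start site of 14.2 kb and a length ratio of 1.11. Without repeated sequence, endogenous SETD5 overlapped 1.97%, and without chromosomes 5 and 6 the class held 2748 islands. A promoter of 2500 bp on both sides gave a share of 19.3%, protein-coding start sites alone gave 8.0% and a median distance of 18.5 kb. Leaving out replicate A or B gave 4914 to 5871 islands, shares of 3.75% to 7.57% for SETD5-V5 at 0 h, 4.46% to 4.99% for endogenous SETD5 and 10.0% to 10.3% for promoters, distances of 12.8 kb to 13.3 kb and length ratios of 1.17 to 1.18. No paired analysis was possible because the values come from no test or fit that could take a block. Fewer islands follow from the stricter rules by construction, and the cause of the other changes was not tested. Of 42 recomputed motif shares, 24 moved, 13 of them with the shorter window of 600 bp, and of 30 counts of list genes, 18 moved, 13 of them with the score filter. The islands of 1 H3K4me1 library per time limit what the class can show: an island over the threshold in 1 library has no further measurement.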
